A study of Mus musculus with 36 samples.

Results

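DN3 thymocytes were compared with DN2Kit+ thymocytes, the stage before them in T cell development, on 3 arrays each. These are the 6 arrays titled DN3 and DN2Kit+ with replicate numbers 1 to 3, of 36 arrays in the study and of 15 in the only normalization set that holds DN2Kit+ cells. Every probe set that names exactly 1 gene was tested (34945), and each of 18193 genes was read by its probe set with the highest mean. Both populations are labelled as thymus of C57BL6 mice, aged 1 week, both sexes, with each array's RNA pooled from several mice, and both carry the sample type early thymic progenitors. No altered allele or treatment is labelled for either, and no sorting gate beyond the names. ETPFlt3hi cells (3 arrays), the early thymic progenitors that precede DN2, share these labels and the set; their levels are given for orientation. Cells of the bone marrow, LSKFlt3hi IL7R+ and LSKFlt3-CD48-CD150+ (3 arrays each), entered the fit for its estimate of spread. They also entered the mean by which each gene's probe set was chosen. All 36 arrays carry an age label of 1 week, also those titled Adult_ETP, which entered only fits of all 36.

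Thymocytes that lack CD4 and CD8 are called double-negative, or DN. At DN2 they carry the receptor tyrosine kinase Kit and the adhesion receptor CD44 and have gained CD25, the alpha chain of the interleukin 2 receptor; at DN3 they have lost Kit and CD44. At DN3 the RAG recombinase joins the segments of the T cell receptor beta gene, and a finished beta chain pairs with pre-T alpha, the product of Ptcra, and with the CD3 chains as the pre-T cell receptor. The passage from DN2 to DN3, under Notch signals from the thymic stroma, is known as T lineage commitment, during which regulators inherited from stem and progenitor cells are shut down.

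Levels are log2 values, so a difference of 1 is 2-fold. Differences are DN3 minus DN2Kit+ with their standard error (SE), and a gene was called when its limma adjusted p (Benjamini-Hochberg) was under 0.05 and its difference at least 1. Arrays have no read depth, and their number limits the precision. Since each array holds a pool, the p-values measure the spread between pools, and in such bulk samples fewer cells of a type and less RNA per cell cannot be told apart. Array medians lay between 5.14 and 5.19. Correlations over probe sets were 0.967 to 0.979 among DN3 arrays, 0.987 to 0.989 among DN2Kit+ arrays and 0.960 to 0.975 between the populations, and the median SD of a gene was 0.216 in DN3 and 0.162 in DN2Kit+.

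Genes of the T cell receptor and of recombination were among those higher in DN3, and regulators of progenitor cells among those lower. Lef1, Ptcra, Cd3d and Rag1 rose by 5.77-fold (Rag1) to 20.9-fold (Lef1), and Hhex, Lyl1, Nfe2 and Hoxa9 fell by 8.36-fold (Hoxa9) to 23-fold (Hhex). In all 407 of 18193 genes were called, 2.24%, of which 152 were higher (0.835%) and 255 lower (1.4%). At least 4-fold changes were found for 41 higher and 70 lower genes. The arrays of the populations did not overlap for 4354 genes (23.9%), and among the called genes 1 had arrays that overlapped. The median difference over all genes was 0.03. An unadjusted limma p under 0.05 was found for 3198 of the 18193 genes, and list counts of such genes below are to be read beside this. Without DN2Kit+ replicate 1 the higher calls numbered 96.

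**Figure D1:**
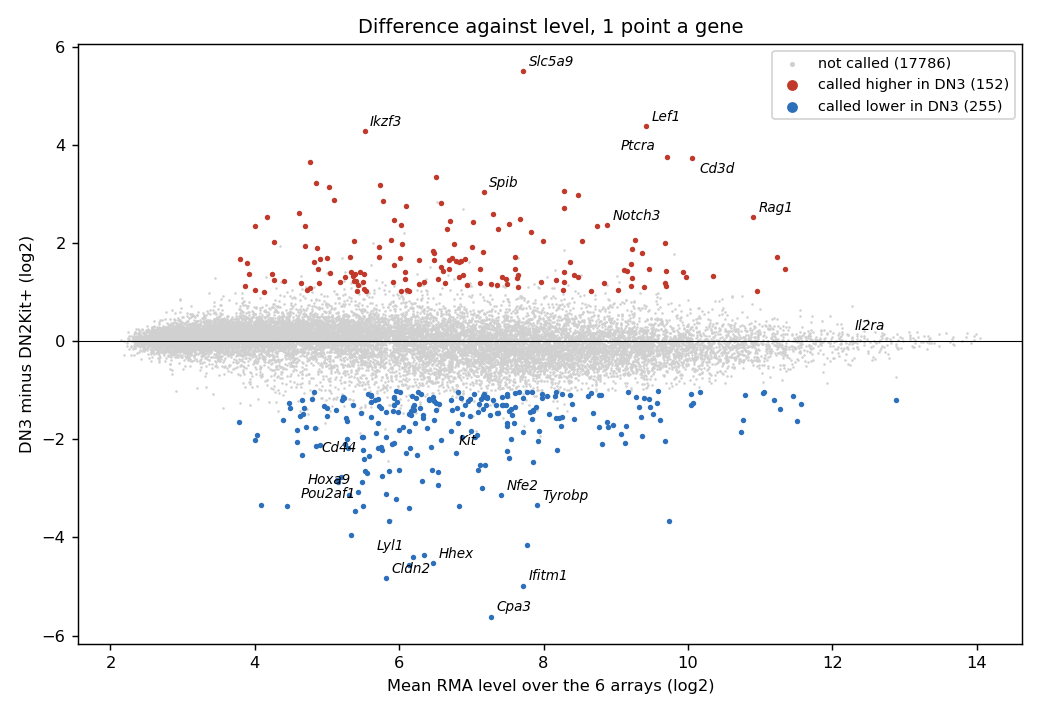
Difference between DN3 and DN2Kit+ (log2, vertical axis) against the mean level over the 6 arrays (log2, horizontal axis), with 1 point for each of 18193 genes. Red points are the 152 genes called higher in DN3, blue points the 255 called lower and grey points the rest, and Il2ra lies near 0 at the right edge of the cloud.

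The labels were first set against their markers. Il2ra, which encodes CD25 and should be present in both stages, stood at 12.39, 12.01 and 12.21 on the DN3 arrays and at 12.24, 12.20 and 12.36 on the DN2Kit+ arrays. The arrays overlapped, and the difference was -0.06 ± 0.20 (SE, adjusted p = 0.922), while ETPFlt3hi stood at 5.13 ± 0.42 (SD, n = 3). Kit read 5.74, 6.09 and 5.60 in DN3 and 7.75, 7.42 and 7.74 in DN2Kit+. It fell by 1.83 log2 units (SE 0.16, adjusted p = 2.05e-05), and its most variable probe set fell by 2.98. Cd44 read 3.81, 4.47 and 4.68 in DN3 and 6.78, 6.43 and 6.95 in DN2Kit+, a fall of 2.40 (SE 0.31, adjusted p = 0.000543) with no overlap. Lef1, Ptcra and Ikzf3, listed as markers of DN3, were all higher there.

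Genes of the receptor itself rose. Of the 5 genes for pre-T alpha and the CD3 chains 3 rose and 0 fell, with a list median of 1.72. Ptcra stood at 11.84, 11.25 and 11.68 in DN3 and at 7.09, 7.89 and 8.53 in DN2Kit+. Every DN3 array lay above every DN2Kit+ array, and the spread was wider in DN2Kit+. The rise was 3.75 ± 0.30 (SE, adjusted p = 7.96e-06), or 13.5-fold. Cd3d, which encodes the delta chain of CD3, read 12.16, 11.91 and 11.73 against 7.87, 8.67 and 8.04, a rise of 3.73 ± 0.24 (adjusted p = 1.16e-06). Cd3e, the epsilon chain, rose from 10.38 ± 0.25 (SD, n = 3) to 12.10 ± 0.41 (n = 3), by 1.72 ± 0.20 (SE, adjusted p = 0.000194). The other two chains were not called. Cd3g, at 12.27 in DN2Kit+ and 12.70 in DN3, differed by 0.43 (adjusted p = 0.348), and Cd247, the zeta chain, by 0.11 (adjusted p = 0.744). In ETPFlt3hi Cd3g stood at 4.26, Cd3e at 5.07, Cd3d at 4.85 and Ptcra at 3.86, and from there to DN2Kit+ Cd3g had moved by 8.01, Cd3e by 5.31, Cd3d by 3.35 and Ptcra by 3.98.

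Recombination genes went up at the enzyme that cuts and the enzyme that adds bases. Rag1, a subunit of the recombinase, stood at 12.43, 12.05 and 12.01 in DN3 and at 9.38, 9.75 and 9.78 in DN2Kit+. The populations did not overlap, and the rise was 2.53 ± 0.21 (SE, adjusted p = 1.1e-05). Dntt, the terminal transferase that adds untemplated bases at the joints, rose by 1.48 ± 0.36 (adjusted p = 0.0393). Leaving out DN3 replicate 1, 2 or 3 or DN2Kit+ replicate 1 or 3 gave it adjusted p of 0.0734 to 0.149. The other probe sets of Dntt rose by 1.61, which was called, and by 1.55 (limma adjusted p = 0.0522). Rag2, the partner subunit, differed by 0.85 (adjusted p = 0.183). The repair genes that close the breaks were not called, with Xrcc4 at 0.18, Xrcc6 at 0.17, Lig4 at 0.24 and Prkdc at -0.86. In all 2 of 11 measured members of the recombination list rose and 0 fell, with a median of 0.22.

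The start of 3 receptor and recombination genes that rose is shown with CAGGTG, a form of the letters read by E proteins. These are the basic helix-loop-helix factors of T cell precursors, and other forms of their letters were not searched. Below are the 250 bases before the RefSeq transcription start in GRCm38.p6, written 5′ to 3′ on the gene's strand, with capitals at each CAGGTG or its reverse complement CACCTG. Ptcra lies on the minus strand at chr17:46763713-46763962, Cd3d on the plus strand at chr9:44981536-44981785 and Rag1 on the minus strand at chr2:101649533-101649782.
Ptcra: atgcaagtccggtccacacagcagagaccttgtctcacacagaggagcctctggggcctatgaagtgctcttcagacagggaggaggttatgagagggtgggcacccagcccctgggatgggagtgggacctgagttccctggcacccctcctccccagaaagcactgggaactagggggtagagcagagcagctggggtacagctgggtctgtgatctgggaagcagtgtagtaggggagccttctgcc
Cd3d: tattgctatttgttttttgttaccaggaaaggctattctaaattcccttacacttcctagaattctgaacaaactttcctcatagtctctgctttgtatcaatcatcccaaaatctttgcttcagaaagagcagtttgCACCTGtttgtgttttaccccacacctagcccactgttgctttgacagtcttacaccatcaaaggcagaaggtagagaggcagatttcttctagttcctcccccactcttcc
Rag1: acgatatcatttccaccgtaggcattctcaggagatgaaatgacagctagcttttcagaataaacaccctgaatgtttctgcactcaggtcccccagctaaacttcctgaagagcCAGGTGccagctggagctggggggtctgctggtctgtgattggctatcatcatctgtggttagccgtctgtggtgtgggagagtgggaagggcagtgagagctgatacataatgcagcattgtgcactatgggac
The motif begins at base -112 in Cd3d and at base -135 in Rag1, counted from the start. This form is not in the Ptcra window, which does not speak for other forms such as CAGCTG, left unmarked in all windows. In windows of 300 bases, from 250 before to 50 after the start, it was found on either strand in 26.9% of 156 windows of called higher genes (121 genes with a window) and in 14.8% of 271 windows of called lower genes (201 genes). The share was 20.02% over 18109 windows of genes on the array and 20.2% over all 32851 windows. Genes with several starts have several windows, and these shares are a description without a test. The letters of other factors of this stage were counted alike: TGTGGT or its complement, read by Runx factors, was in 16.03% of higher and 17.3% of lower windows, CTTTGA, read by TCF and LEF factors, in 14.7% and 11.4%, and TGGGAA, read by the Notch partner RBPJ, in 23.1% and 26.9%. Over the genes on the array these shares were 13.7%, 13.5% and 24.2%. Each motif was searched alone on both strands, their letters can overlap at the ends, and a match is not a bound site.

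Among T lineage transcription factors 3 of 17 measured members rose and 1 fell, with a median of 0.22. Lef1, which binds DNA beside its relative TCF1 and can act with beta-catenin, stood at 11.45, 11.55 and 11.86 in DN3 and at 6.88, 7.49 and 7.33 in DN2Kit+. The lowest DN3 array lay far above the highest DN2Kit+ array, and the rise was 4.39 ± 0.22 (SE, adjusted p = 7.45e-08), or 20.9-fold, with 4.54 at its other probe set. Spib, an Ets factor related to PU.1, read 8.65, 8.89 and 8.54 against 5.64, 5.54 and 5.77, a rise of 3.05 ± 0.12 (adjusted p = 1.17e-08). Ets2 rose by 1.89 ± 0.28 (adjusted p = 0.00176), and on the mean of all its probe sets by 0.99, under 2-fold. Ets1 differed by 0.98 ± 0.15 (adjusted p = 0.00188), short of the fold threshold. Bcl11b, the zinc finger factor that marks commitment, stood at 11.70 in DN2Kit+ and 12.22 in DN3 (difference 0.52, adjusted p = 0.137), against 4.39 in ETPFlt3hi. Gata3 (-0.59), Runx1 (0.46), Gfi1 (0.26) and Myb (-0.02) were not called.

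Runx3, a relative of Runx1 that later directs CD8 cells, was the member that fell. It read 8.10, 7.84 and 8.92 in DN3 and 10.03, 9.95 and 10.05 in DN2Kit+, a difference of -1.72 ± 0.40 (SE, adjusted p = 0.032). Its adjusted p was 0.094 to 0.103 on leaving out DN3 replicate 1 or 2 or any DN2Kit+ array, and the mean of its probe sets was -1.04.

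The Ikaros family of zinc finger factors changed at 1 of 5 members. Ikzf3, which encodes Aiolos, stood at 8.04, 8.39 and 6.56 in DN3 and at 3.105, 3.55 and 3.48 in DN2Kit+. DN3 replicate 3 was the lowest of its group and still lay well above DN2Kit+. The rise was 4.28 ± 0.34 (SE, adjusted p = 7.96e-06), but its other probe sets gave 0.89 and 0.22 and the mean of the 3 gave 1.80. Ikzf1 (-0.28), Ikzf2 (-0.67) and Ikzf4 (0.80) were not called, nor was Ikzf5, at -0.50 and adjusted p = 0.0436. Of the E proteins and their Id inhibitors 1 of 7 changed: Id3, the inhibitor induced by receptor signals, read 7.02, 6.70 and 6.64 against 5.33, 5.62 and 5.16 and rose by 1.42 ± 0.21 (adjusted p = 0.00188). The E protein genes Tcf3 (0.15) and Tcf12 (0.34) were not called.

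Notch genes split. Of 20 measured members 2 rose and 2 fell, with a median of 0.10. Notch3, a receptor that is itself a Notch target, stood at 10.73, 9.22 and 10.24 in DN3 and at 7.58, 7.92 and 7.61 in DN2Kit+, a rise of 2.36 ± 0.31 (SE, adjusted p = 0.000683). Dtx1, which encodes the Notch-binding ubiquitin ligase Deltex, read 8.68, 8.38 and 8.48 against 6.23, 6.47 and 5.98 and rose by 2.29 ± 0.27 (adjusted p = 0.000258). Neither gene had overlapping arrays. Deptor, an mTOR inhibitor, fell by 1.92 (SE 0.27, adjusted p = 0.00107), and by 3.49 at its most variable probe set. Nrarp, a feedback inhibitor of the Notch complex, fell by 1.08 (SE 0.21, adjusted p = 0.0127). The Nrarp difference was -0.87 without DN3 replicate 2, and its adjusted p 0.0627 without DN2Kit+ replicate 1 and 0.06 without DN2Kit+ replicate 2. With the 6 arrays alone it was 0.067, and the mean of the probe sets gave -0.93. The classical targets Hes1 (0.22) and Myc (0.25) and the receptor Notch1 (0.23, adjusted p = 0.49) were not called.

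Few T cell signalling and surface genes were called, and over all genes the share called was also low, 2.24%. Of 16 measured proximal signalling genes 1 rose: Sh2d1a, the adaptor SAP of SLAM receptors, read 8.70, 8.73 and 8.38 against 5.75, 6.64 and 5.63, a rise of 2.59 ± 0.22 (SE, adjusted p = 1.1e-05). Lat, the membrane scaffold of receptor signalling, differed by 0.64 (adjusted p = 0.0283) and Zap70, the kinase that binds CD3 chains, by 0.56 (adjusted p = 0.372). None of the 14 surface genes was called by limma, and 7 had an unadjusted p under 0.05, as did 3198 of all 18193 genes. Cd28, the costimulatory receptor, stood at 7.97, 8.84 and 7.90 in DN3 and at 4.84, 5.67 and 6.11 in DN2Kit+. Its arrays did not overlap, and the difference of 2.70 had adjusted p = 0.185, which became 0.021 when the fit held only these 6 arrays and 0.017 when it held all 36. Thy1 stood at 11.94 in DN2Kit+ and 12.30 in DN3, and Cd5 differed by -0.84 (adjusted p = 0.0835).

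Slc5a9, which encodes a sodium-coupled sugar transporter, had the largest rise. It stood at 9.99, 10.99 and 10.43 in DN3 and at 4.87, 4.65 and 5.38 in DN2Kit+, a rise of 5.51 ± 0.23 (SE, adjusted p = 1.53e-08) or 45.5-fold. Its other probe sets rose by 4.79, 6.33 and 5.56. Tenm1, a teneurin adhesion protein, rose by 3.35 ± 0.32 (adjusted p = 3.8e-05). Phlda1, a pleckstrin-homology protein induced by receptor signals, rose by 3.65 ± 0.58 (adjusted p = 0.00284) and Unc5cl, a death-domain protein, by 3.18 ± 0.27 (adjusted p = 1.62e-05). Vwce rose by 3.16, and Hivep3, a zinc finger protein, by 3.06, or 1.69 on the mean of all its probe sets. Adam19, a membrane metalloprotease, read 4.50, 7.57 and 7.33 against 3.21, 3.35 and 3.14. DN3 replicate 1 lay apart from the others, and the adjusted p of 0.0111 became 0.0966 when the fit held only these 6 arrays. The other probe set of Adam19 rose by 2.42 (limma adjusted p = 0.000306).

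**Figure D2:**
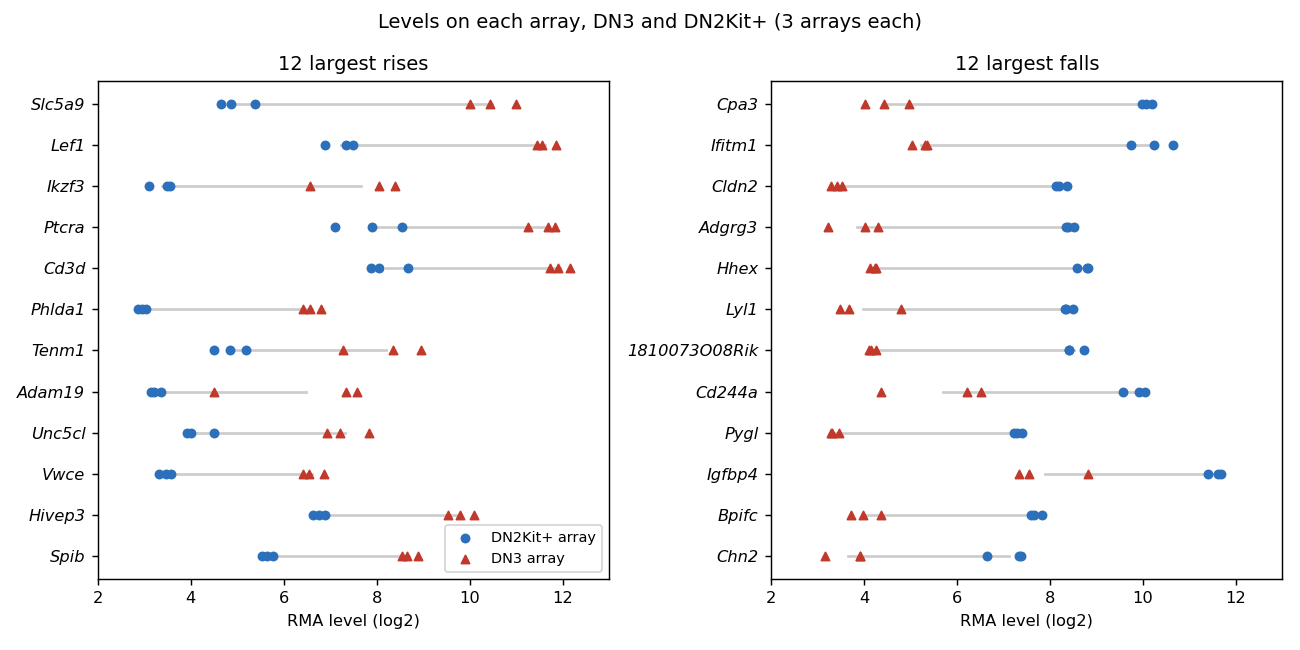
RMA level (log2, horizontal axis) on each of the 3 DN2Kit+ arrays (blue circles) and 3 DN3 arrays (red triangles) for the 12 genes that rose most and the 12 that fell most among those called, and grey lines that join the means. In every row the triangles and circles keep apart, which the choice of these genes required; Adam19, Ikzf3 and Cd244a have the widest DN3 spread.

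Regulators of progenitor cells were lower in DN3. Of 24 measured progenitor transcription factors 7 fell and 1 rose, 21 had a difference below 0 against 45.4% of all genes, and the list median was -0.63. Hhex, a homeobox factor of stem cells and early lymphoid cells, stood at 4.23, 4.13 and 4.26 in DN3 and at 8.79, 8.57 and 8.82 in DN2Kit+. Its arrays within each population were close together and far apart between them. It fell by 4.52 (SE 0.15, adjusted p = 5.19e-09), or 23-fold. Lyl1, a basic helix-loop-helix factor and T leukaemia oncogene, read 3.49, 4.80 and 3.67 against 8.50, 8.32 and 8.34 and fell by 4.40 (SE 0.30, adjusted p = 1.93e-06). Nfe2, a bZIP factor of megakaryocyte and erythroid cells, read 5.57, 6.07 and 5.88 against 8.86, 9.12 and 8.96, a fall of 3.14 (SE 0.22, adjusted p = 2.71e-06). Hoxa9, a homeobox gene of stem cells, fell by 3.06 (SE 0.26, adjusted p = 1.45e-05), or by 1.65 on the mean of all its probe sets. Hhex stood at 10.34 in ETPFlt3hi, Lyl1 at 8.82, Nfe2 at 8.93 and Hoxa9 at 10.59. From ETPFlt3hi to DN2Kit+ Hoxa9 had moved by -3.63, Hhex by -1.61, Lyl1 by -0.43 and Nfe2 by 0.05. Most of the fall of Hhex, Lyl1 and Nfe2 thus lay after DN2Kit+.

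The other called progenitor factors fell less. Mycn, a Myc relative, fell by 1.86 (adjusted p = 0.00183) and Bcl11a, the relative of Bcl11b in B cell and stem cell development, by 1.67 (adjusted p = 0.00158). The mean of the probe sets gave -0.99 for Mycn and -1.05 for Bcl11a. Erg, an Ets factor of stem cells, fell by 1.26 (adjusted p = 0.000753), and by 1.98 at its most variable probe set. Tal1, at -0.995 (adjusted p = 0.0153), and Etv6, at -0.97 (adjusted p = 0.0012), missed the fold threshold narrowly. Spi1, which encodes PU.1, differed by -0.53 (adjusted p = 0.541), Lmo2 by -0.92 (adjusted p = 0.242) and Meis1 by -1.33 (adjusted p = 0.064). Lmo2 stood at 4.43 in DN2Kit+ against 8.88 in ETPFlt3hi. Egr1, an immediate early factor, was the member that rose, reading 6.80, 7.61 and 7.10 against 4.77, 4.77 and 4.52, by 2.48 ± 0.51 (SE, adjusted p = 0.0158). Its adjusted p was 0.0552 to 0.0654 without DN3 replicate 2 or any 1 of the DN2Kit+ arrays. It was also the 1 of 15 immediate early and heat shock genes called, and Egr2 (0.27), Nr4a1 (-0.23) and Fos (-0.97) were not.

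Surface receptors of progenitors fell in 5 of 14 measured members and rose in 0, with a median of -0.65. Besides Kit and Cd44 these were Cd34, a sialomucin of progenitors, by 2.12 (SE 0.26, adjusted p = 0.000353), Cd93, a C-type lectin receptor, by 1.89 (SE 0.16, adjusted p = 1.65e-05) and Cd48, a SLAM family ligand, by 1.49 (SE 0.25, adjusted p = 0.00403). Cd34 read 3.30, 4.02 and 4.19 in DN3 and 6.47, 5.52 and 5.89 in DN2Kit+, against 10.33 ± 0.07 (SD, n = 3) in ETPFlt3hi. The most variable probe set of Cd93 gave -2.09 with adjusted p = 0.155. Flt3, a cytokine receptor kinase, stood at 3.87 in DN2Kit+ and 3.85 in DN3, and Csf1r, the macrophage growth factor receptor, at 3.17 in both. In ETPFlt3hi these stood at 9.53 and 9.18.

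**Figure D3:**
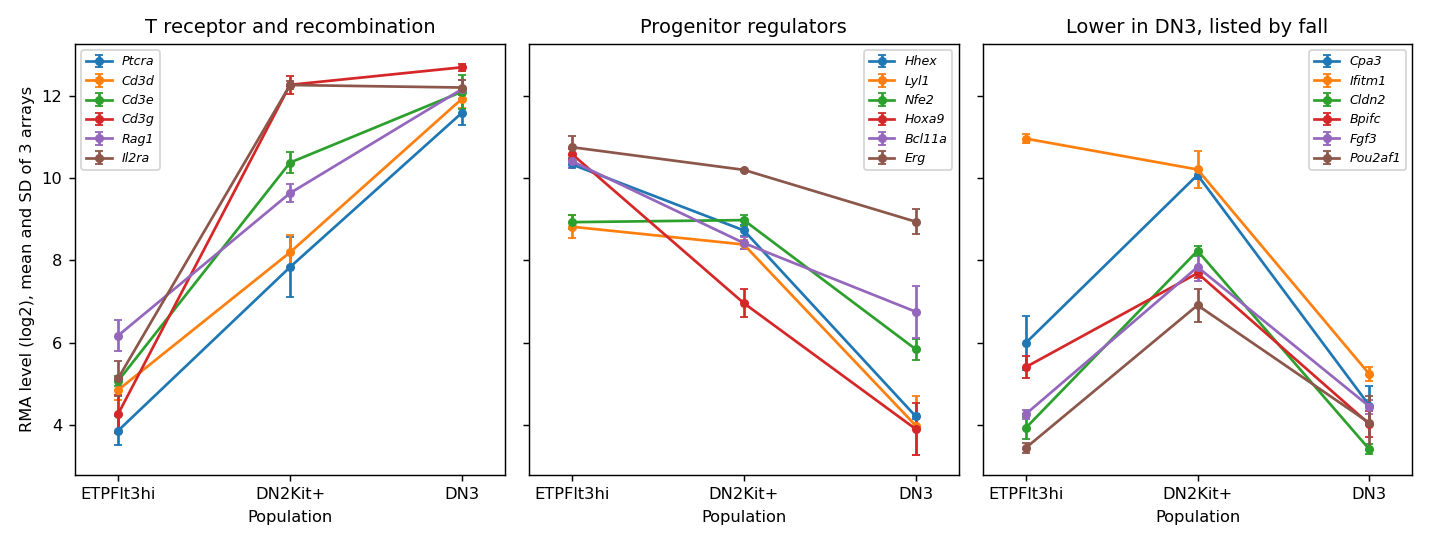
RMA level (log2, vertical axis, mean with SD of 3 arrays) in ETPFlt3hi, DN2Kit+ and DN3 for receptor and recombination genes (left), progenitor regulators (middle) and 6 genes called lower in DN3 (right). Il2ra and Cd3g already stand at 12.27 in DN2Kit+, and Ptcra and Cd3d climb through both steps. Hhex, Lyl1 and Nfe2 drop mostly after DN2Kit+, and Cldn2, Bpifc, Fgf3 and Pou2af1 are highest in DN2Kit+.

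The largest falls also held genes with no role in the T lineage by name. Cpa3, a carboxypeptidase of mast cell granules, stood at 4.02, 4.42 and 4.96 in DN3 and at 10.06, 9.98 and 10.19 in DN2Kit+, a fall of 5.61 (SE 0.28, adjusted p = 7.45e-08), or 48.9-fold. A list of mast cell and basophil genes, drawn up after this value was seen and without Cpa3, had 0 of 9 measured members called by limma. Of these 0 had an unadjusted p under 0.05, and the differences ran from -0.36 to 0.36. Whether mast cells had a part in the fall of Cpa3 was not tested. The summed level of the list, its log2 values added, was 40.05 to 41.5 on the DN3 arrays and 38.7 to 40.1 on the DN2Kit+ arrays. The IgE receptor genes Ms4a2 (2.71 in DN2Kit+, 2.90 in DN3) and Fcer1a (2.62 and 2.59) lay below the 10th percentile of all genes, 3.07 and 3.14. Ifitm1, an interferon-induced membrane protein, read 5.35, 5.03 and 5.31 against 10.23, 9.75 and 10.65 and fell by 4.98 (SE 0.20, adjusted p = 1.17e-08). Adgrg3, an adhesion receptor, fell by 4.57 (SE 0.38, adjusted p = 1.1e-05), and Cd244a, the SLAM family receptor 2B4, by 4.15 (SE 0.44, adjusted p = 9.61e-05). The glycogen phosphorylase Pygl (-3.95), the insulin-like growth factor binding protein Igfbp4 (-3.67), the Rac regulator Chn2 (-3.46) and 1810073O08Rik (-4.35) fell as well. With the mean of their probe sets Cd244a was at -2.56 and Chn2 at -2.10.

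Some of the lower genes stood higher in DN2Kit+ than in both neighbours. Cldn2, a claudin of tight junctions, stood at 3.92 ± 0.27 (SD, n = 3) in ETPFlt3hi and 8.23 ± 0.12 in DN2Kit+ and read 3.52, 3.41 and 3.28 in DN3, a fall of 4.83 (SE 0.17, adjusted p = 5.19e-09). Its other probe set differed by -0.42, and the mean of both by -2.63. Bpifc, a lipid-binding family member, stood at 5.40, 7.69 and 4.02 in the same order and fell by 3.67 (SE 0.25, adjusted p = 1.9e-06). Pou2af1, the octamer coactivator of B cells, stood at 3.44, 6.91 and 4.05 and fell by 2.86 (SE 0.35, adjusted p = 0.000384). Cpa3 itself stood at 5.99 in ETPFlt3hi. Since the DN2Kit+ arrays enter both steps, a high value on them moves both, and no test was made of the pattern.

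Of 20 measured genes of natural killer and innate lymphoid cells 3 were called lower and 0 higher, beside 1.4% and 0.835% over all genes. The list as a whole moved little, with 8 members above 0 and a median of -0.06. Tyrobp, the signalling adaptor DAP12, read 7.12, 5.45 and 6.14 in DN3 and 9.59, 9.47 and 9.66 in DN2Kit+, a fall of 3.34 (SE 0.30, adjusted p = 2.22e-05). Fasl, the death ligand, fell by 2.88 (SE 0.32, adjusted p = 0.000153) and Fcer1g, the gamma chain of Fc receptors, by 1.61 (SE 0.29, adjusted p = 0.00816, or 0.0695 with the 6 arrays alone). Gzma, a granzyme, stood at 10.95 in DN2Kit+ and 11.15 in DN3. The defining genes Ncr1 (2.96 and 3.13), Eomes (3.25 and 2.98) and Klrd1 (2.60 and 2.66) were near the lowest levels of the arrays in both populations. Id3 was the 1 of 7 gamma delta T cell genes called.

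Homing and cytokine genes changed at single members. Of 17 homing and adhesion genes 1 rose and 2 fell. Ccr9, the chemokine receptor of thymus homing, read 6.77, 6.94 and 6.34 in DN3 and 4.66, 4.96 and 4.64 in DN2Kit+, a rise of 1.93 ± 0.47 (SE, adjusted p = 0.0429), while ETPFlt3hi stood at 9.26. Leaving out any 1 of the 6 arrays took its adjusted p to 0.061 to 0.136. The mean of its probe sets was 1.22 (limma adjusted p = 0.01). Its other probe sets gave 1.43 and 2.04, which were called, and 0.40 and 0.29, which were not. Itga4, the alpha 4 integrin, fell by 1.19 (SE 0.16, adjusted p = 0.000973), the other being Cd44. Cytokine receptors and signalling genes rose at 2 of 21 members, Socs3 by 2.38 ± 0.52 (adjusted p = 0.0236) and Tgfbr1 by 1.10 ± 0.15 (adjusted p = 0.00119), and fell at 0. Socs3, a feedback inhibitor of cytokine signals, had adjusted p 0.052 to 0.108 without DN3 replicate 1 or any 1 of the DN2Kit+ arrays. Its other probe sets gave 2.252, which was called, and 0.28, and the mean of the 3 was 1.63 (adjusted p = 0.0745). Tgfbr1 was at 0.87 with all 36 arrays in the fit and at 0.75 on the mean of all its probe sets, under 2-fold in both. Il7r, the interleukin 7 receptor chain, differed by -0.35 (adjusted p = 0.422).

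Few growth and division genes were called, and over all genes the share called was also low, 2.24%. Of 23 mitosis and spindle genes 23 had a difference below 0 and 0 were called by limma (9 had an unadjusted p under 0.05), with a median of -0.49, and of 26 DNA replication genes 23 were below 0 and 1 was called, with a median of -0.43. Over all genes 45.4% were below 0. These lists hold genes of high level, and without probe sets of low mean the median difference over 9676 genes was -0.07. Bub1, a spindle checkpoint kinase, differed by -0.89 (adjusted p = 0.0461), Mad2l1, a checkpoint protein, by -0.71 (adjusted p = 0.0474) and Cdk1, the mitotic kinase, by -0.68 (adjusted p = 0.0487), all under 2-fold. Mki67, a marker of cycling cells, stood at 12.62 in DN2Kit+ and 12.58 in DN3. Mcm10, which loads replication factors, was the 1 called (-1.08, adjusted p = 0.0264). Its call was lost without DN3 replicate 1 (-0.86) and without DN2Kit+ replicate 1, 2 or 3 (adjusted p = 0.0784 to 0.0929). Its other probe sets gave -0.41 and -0.54, neither called, and the mean of the 3 was -0.68 (adjusted p = 0.0575). The call was also lost with the 6 arrays alone (adjusted p = 0.058), and with all 36 arrays (-0.98) or array weights (-0.96) the difference was under 2-fold. Bub1 was called without DN3 replicate 2 (-1.08) or 3 (-1.04). The summed level of the mitosis list was 198.5 to 207.2 on the DN3 arrays and 213.3 to 216.1 on the DN2Kit+ arrays.

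Of 21 genes for G1 cyclins, their kinases and inhibitors 0 were called by limma (median -0.20, 9 with an unadjusted p under 0.05), with Cdk2 at -0.57 (adjusted p = 0.0418) and Cdk4 at -0.53 (adjusted p = 0.0296). Of 19 glycolysis genes 1 rose (median -0.22): Ldhb, a lactate dehydrogenase subunit, by 1.18 ± 0.24 (SE, adjusted p = 0.0152). Its adjusted p was 0.0525 without DN3 replicate 2, 0.0721 without DN2Kit+ replicate 1 and 0.0585 without DN2Kit+ replicate 3. The other probe sets of Ldhb rose by 1.71, 1.35 and 1.27, each of them called. Neither the 16 nutrient receptor and ribosome biogenesis genes (median -0.10) nor the 14 DNA methylation and Polycomb genes (median 0.11) had a call by limma, with 3 and 2 at an unadjusted p under 0.05, and the methyltransferase Dnmt3b was at -0.64 (adjusted p = 0.0239). Of 13 Bcl2 family genes 1 rose. Bcl2l11, which encodes the death activator Bim, read 10.67, 9.32 and 9.55 against 8.45, 8.57 and 8.13, by 1.47 ± 0.35 (adjusted p = 0.0397). Its adjusted p was 0.125 without DN3 replicate 1, 0.0524 without DN3 replicate 3 and 0.0911 to 0.14 without DN2Kit+ replicate 1, 2 or 3. Its other 4 probe sets gave -0.35 to 1.04 with none called, and the mean over all of them was 0.63 (adjusted p = 0.161). With only the 6 arrays in the fit its adjusted p was 0.102. The survival gene Bcl2 differed by -0.82 (adjusted p = 0.0122), under 2-fold.

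**Figure D4:**
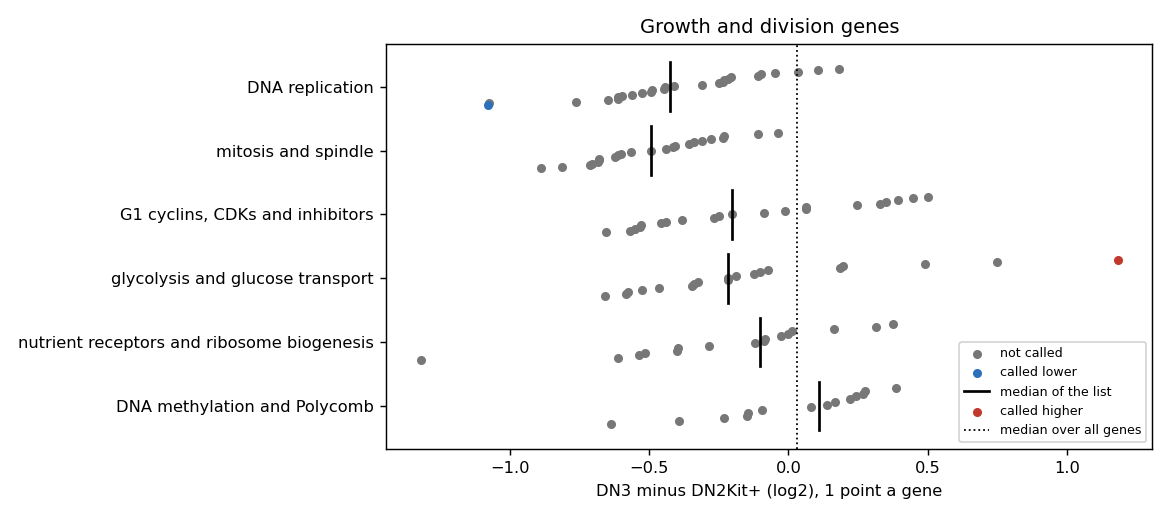
Difference between DN3 and DN2Kit+ (log2, horizontal axis) of each gene in 6 growth and division lists, 1 point a gene, with a vertical bar at each list's median and a dotted line at the median of all genes, 0.03. All 23 mitosis points lie left of 0, and the coloured points are the called genes, Mcm10 (lower) and Ldhb (higher).

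Markers of other cells were followed for the same arrays. Of 17 granulocyte and monocyte genes 1 was called, the Fc receptor Fcgr2b at -1.63 (adjusted p = 0.0325), while 11 of the 17 had a difference above 0 and the median was 0.09. The summed level of the list was 77.4 to 78.2 in DN3 and 81.9 to 83.5 in DN2Kit+, with Mpo and Fcgr2b the members furthest below 0. The Fcgr2b call was lost without DN3 replicate 2 (adjusted p = 0.0846) or 3 (0.105) and without DN2Kit+ replicate 1 (0.103), and in a fit of the 6 arrays (0.151). The other 4 probe sets of Fcgr2b gave -0.57 to 0.20 with none called, and their mean with it -0.43 (adjusted p = 0.0728). Mpo, the myeloid peroxidase, stood at 3.92, 4.11 and 4.18 in DN3 and at 7.83, 7.65 and 7.63 in DN2Kit+ with 10.72 in ETPFlt3hi. The difference of -3.64 had adjusted p = 0.0744 in the fit of 15 arrays and 0.000179 in a fit of these 6 alone. It was 0.0111 over all 36 arrays, 0.0321 with array weights and 0.0479 without probe sets of low mean. The SD of Mpo over the LSKFlt3-CD48-CD150+ arrays was 3.12. The neutrophil genes Elane (3.02 and 3.05) and Camp (4.38 and 4.54) were not called, nor was any of 9 macrophage genes (1 with an unadjusted p under 0.05, sums of 33.6 to 35.1 in DN3 and 32.9 to 33.9 in DN2Kit+). The B lineage list had 2 of 13 called lower and 0 higher, Pou2af1 and Cd72, a B cell coreceptor, at -1.56 (adjusted p = 0.0434). Yet 9 of the 13 had a difference above 0, and the list median was 0.16. Its sums were 60.2 to 63.0 in DN3 and 62.9 to 65.7 in DN2Kit+, and its highest member mean was 8.16 in DN3 and 7.56 in DN2Kit+. Cd72 had adjusted p 0.0693 to 0.167 without DN3 replicate 2 or 3 or any 1 of the DN2Kit+ arrays, 0.0939 with the 6 arrays alone, 0.0955 with all 36 arrays and 0.0531 after quantile normalization. The defining B cell genes Pax5 (4.96 and 5.01), Cd79a (4.07 and 4.37) and Ms4a1 (2.86 and 2.75) lay below the median of all genes, 5.64 and 5.65.

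Of the double-positive thymocyte list, the stage after DN3, 1 of 7 members rose: Tcra, the T cell receptor alpha constant region, by 1.98 ± 0.16 (SE, adjusted p = 1.05e-05), from 5.77 to 7.75. Cd4 (0.27), Cd8a (0.35) and Cd8b1 (0.49) were not called, nor was the 1 member below 0, at -1.42. The list's sums were 44.9 to 46.4 in DN3 and 42.0 to 43.4 in DN2Kit+. The thymic epithelium list had 1 of 10 higher, the adhesion molecule Epcam at 1.25 ± 0.18 (adjusted p = 0.00144), or 0.99 on the mean of all its probe sets. The epithelial genes Foxn1 (4.17 and 4.37) and Psmb11 (3.56 and 3.76) stood low in both, and the sums were 52.8 to 55.3 and 50.7 to 51.0. Dendritic cell (11 genes), stroma and endothelium (9), red cell (5) and fetal-type (5) lists had 0 members called by limma, and 2, 1, 0 and 0 with an unadjusted p under 0.05. Their medians were 0.17, 0.06, 0.02 and 0.07, and their sums were 59.2 to 60.5, 45.8 to 46.4, 22.2 to 23.1 and 27.1 to 28.05 in DN3 and 58.1 to 59.3, 46.5 to 47.5, 21.5 to 23.3 and 26.5 to 27.0 in DN2Kit+. Pdgfrb, a growth factor receptor of mesenchymal cells in the stroma list, was at -0.92 (adjusted p = 0.0217), and it was called without DN2Kit+ replicate 1 (-1.05). The part of these marker lists in any result was not tested.

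**Figure D5:**
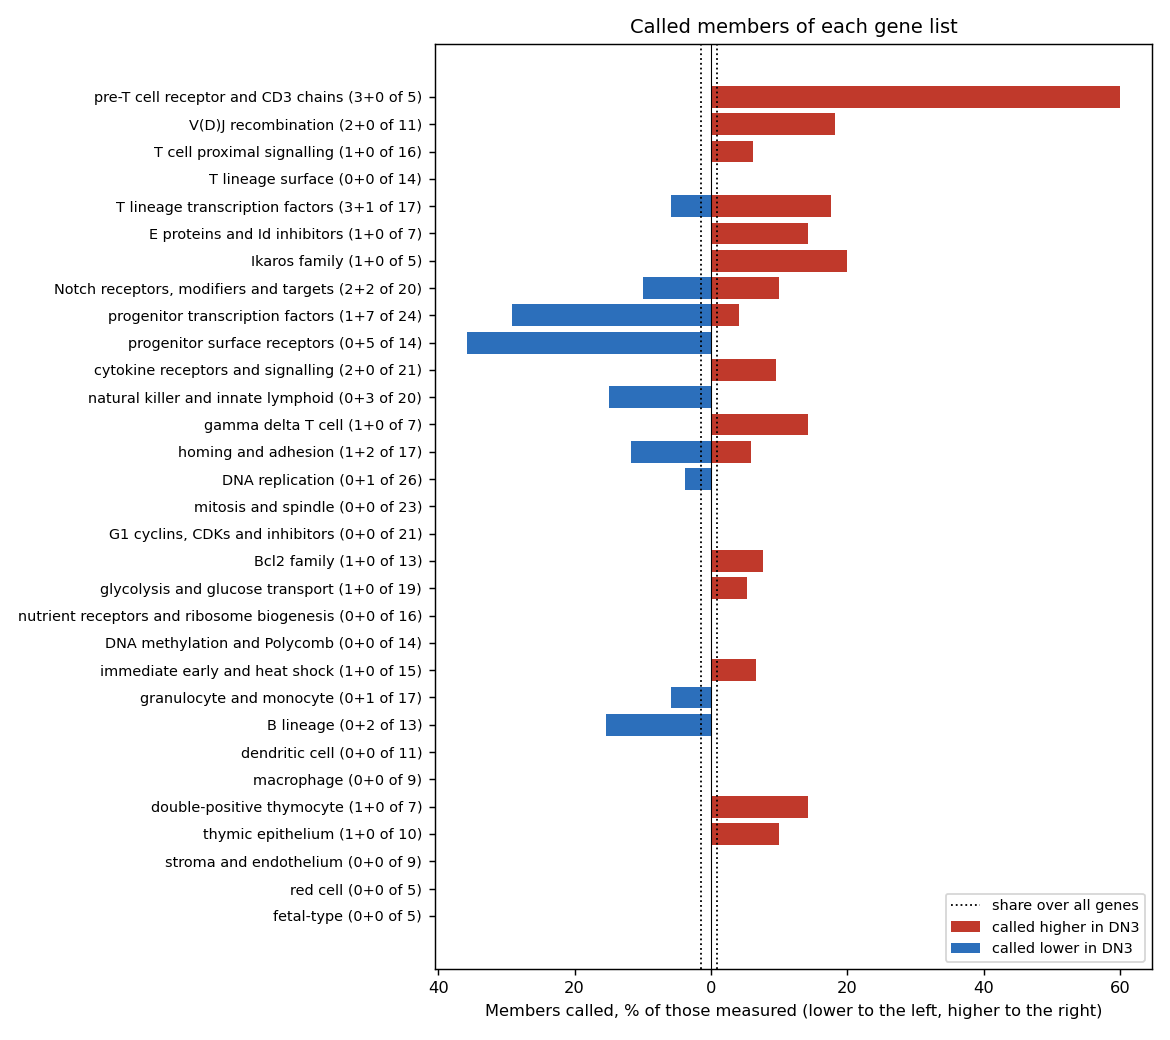
Share of the measured members of each of 31 gene lists (the markers of the labels are left out) called higher in DN3 (red, to the right) or lower (blue, to the left), in percent, with the numbers called higher and lower and measured beside each name. Dotted lines mark the shares over all genes, 0.835% and 1.4%; among the lists drawn, receptor genes reach furthest to the right and progenitor receptors and factors furthest to the left, and a short list moves far with 1 gene.

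A further group of arrays bears on the DN3 side of these differences. The study's other normalization set holds 3 DN3 and 3 ETPFlt3hi arrays that share no array with the comparison, though no DN2Kit+ array. There the DN3 minus ETPFlt3hi difference was above 0 for 147 of the 152 genes called higher, with a median of 1.41, against 58.2% of all genes and a median of 0.06. It was below 0 for 235 of the 255 genes called lower, with a median of -1.40. In the set of the comparison, whose DN3 arrays gave the calls, these medians were 1.94 and -1.80. The difference also spans the step from ETPFlt3hi to DN2Kit+, so its sign does not test DN3 against DN2Kit+. In the other set Ptcra was at 6.16, Lef1 at 4.46, Cd3d at 5.24, Rag1 at 5.75, Hhex at -6.23, Lyl1 at -3.70 and Cd44 at -3.42. Pou2af1, at 2.19, and Fgf3, a growth factor gene that fell by 3.39 from DN2Kit+ to DN3, at 0.07, were above 0 there. In limma's interaction test 0 genes differed between the sets in DN3 minus ETPFlt3hi after adjustment, and 996 had an unadjusted p under 0.05.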

How the data were processed

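The deposited table holds log2 expression values of Affymetrix arrays made with RMA, per the submitters' processing notes. The base 2 was read from the range of the values, and the RMA version and genome build are not given in the sources used here. Of 45101 probe sets 64 are controls, 34945 name 1 gene, 932 several and 9160 none listed. Each of 18193 genes was read by its probe set with the highest mean over the 15 arrays of the first normalization set; 9010 genes have several. Set membership follows the style of the labels.

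A limma model (version 3.58.1, R 4.3.3, lmFit and eBayes) was fitted over these 15 arrays in 5 populations, with Benjamini-Hochberg adjustment over all 34945 probe sets and a threshold of 0.05 and 2-fold. The fitting step was tested on simulated data. Tables and plots used Python 3.11.15, pandas 2.3.3, numpy 2.4.6 and matplotlib 3.10.9.

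The members, the 32 lists (452 genes, 33 not measured) and the tests were chosen with earlier results of these data known, and the mast cell list after its values. Genes named are the 12 largest rises and falls with arrays that do not overlap, the 2 most changed called members of each list (with none called, the 2 of smallest p), the markers (68 in all) and other list members as examples. Alternatives changed the arrays in the fit, scaling, probe set, low-level filter, fold threshold, array weights, replicate block and each array left out. Promoter windows are from RefSeq.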

Additional observations from a re-analysis of the deposited data

Results flagged for a closer look

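Probe sets outside the tested table also differed between DN3 and DN2Kit+. In a fit of all non-control probe sets, 120 of the 9160 with no listed gene were called (1.31%), 57 higher and 63 lower in DN3. Of the 932 that name several genes 12 were called (1.29%), 6 higher and 6 lower. In the same fit 679 of 34945 probe sets that name 1 gene were called (1.94%). These probe sets enter no gene count above, and which genes they read was not examined.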

How the results depend on the processing

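The fit called 407 genes, 152 higher and 255 lower. With no fold threshold 690 were called (251 and 439), and tested against 1.5-fold with treat 143 (53 and 90). Without probe sets of low mean the higher calls were 99 and the total 351, with 28.2% of calls higher against 37.3%. Leaving out 1 of the 6 arrays gave 282 to 435 calls, 96 to 160 higher and 185 to 275 lower. The fit of the 6 arrays alone called 302 genes, 274 of them shared, and that of all 36 arrays 431, with 333 shared. Centring each array (418), quantile normalization (385), the mean of a gene's probe sets (378), the most variable probe set (478) and array weights (452) stayed within 1.5 times. With the replicate number as a block 380 genes were called (143 higher, 237 lower), 368 of them shared. Same-numbered arrays deviated together at 0.048, 0.085 and 0.001, and 2 of 3 DN3 arrays were nearest their own number. With 3 arrays each these values do not settle whether the numbers mark pairs, and the main fit did not take them as pairs. The block ended the calls of Bcl2l11 (adjusted p = 0.0726), Ccr9 (0.0562), Cd72 (0.0654) and Mcm10 (0.0516). Of 138 genes followed, 115 were called and 80 of these kept call and direction under every alternative run for them, and 0 reversed. Of 2312 single-gene values 126 lost a call and 15 gained it, with 28 of the losses under treat and 14 in the fit of 6 arrays, and 119 of 1088 list counts moved by over 1.5 times or to or from 0. Genes near the lowest levels are limited by background.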

Other observations

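Among the other genes called with at least a 4-fold change, 6 that rose and 6 that fell are given here, chosen after their values were seen. They are single genes and stand for no group. Ctla4, an inhibitory receptor, stood at 10.12, 9.76 and 9.87 in DN3 and at 6.69, 8.23 and 7.80 in DN2Kit+. It rose by 2.35 ± 0.47 (SE, limma adjusted p = 0.0135), with adjusted p = 0.0667 without DN2Kit+ replicate 1. Cd200, an immunoglobulin family ligand, rose by 2.53 ± 0.27 (adjusted p = 0.000119), Nrp1, a semaphorin coreceptor, by 2.46 ± 0.23 (adjusted p = 3.72e-05) and Camk4, a calcium-dependent kinase, by 2.30 ± 0.37 (adjusted p = 0.00323). The arrays of the populations did not overlap for these 4 genes. Cdh1, which encodes E-cadherin, rose by 2.07 ± 0.20 (adjusted p = 3.83e-05). Spo11, the enzyme that cuts DNA in meiosis, read 7.08, 7.15 and 7.38 in DN3 against 4.10, 4.59 and 4.33, a rise of 2.86 ± 0.25 (adjusted p = 1.7e-05).

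The 6 genes given as lower are in none of the granulocyte, monocyte or macrophage lists, so the counts of those lists do not cover them. In those lists 1 of 17 and 0 of 9 members were called by limma (2 and 1 at an unadjusted p under 0.05), with medians of 0.09 and 0.07. Which cells the 6 genes were read from was not tested. Siglecf, a sialic acid receptor of eosinophils, read 2.73, 2.83 and 2.75 in DN3 against 6.66, 5.46 and 6.29 in DN2Kit+, a fall of 3.36 (SE 0.27, limma adjusted p = 7.96e-06). Clec4d, a C-type lectin receptor, fell by 2.85 (adjusted p = 0.000178) and Alox5ap, which serves leukotriene synthesis, by 2.23 (adjusted p = 2.83e-05). Ncf1, a subunit of the phagocyte oxidase, fell by 2.67 (adjusted p = 0.000493), and the average over its probe sets by 1.74. Cst7, an inhibitor of cathepsins, fell by 3.35 (adjusted p = 6.43e-06). S100a4, a calcium-binding protein, was at -2.32 (adjusted p = 0.0122), with adjusted p 0.0641 and 0.0522 without DN2Kit+ replicates 1 and 2 and 0.0904 with the 6 arrays alone.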
